A study of Mus musculus with 8 samples.

Results

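The genes described here encode the machinery that moves newly made secretory proteins from the endoplasmic reticulum (ER) to the Golgi apparatus. They were 43 genes chosen by name: the Sec61 translocon and its partners, the COPII and COPI vesicle coats, cargo receptors, KDEL receptors, Golgi matrix proteins and SNAREs. The choice was made with earlier results of these data known. All 43 were represented on the arrays, by 87 probe sets with 1 gene symbol each, out of 18193 genes and 45037 probe sets tested. A gene's value is the mean of its probe sets on an array.

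Hyp mice, a model of X-linked hypophosphatemia, have lost the 3′ part of Phex and were on a C57BL/6 background. The controls are labelled WT, with wild type given as their strain and no statement on whether they were littermates. Both groups were male, 12 days old and kept on a standard diet, and 4 arrays were hybridised per genotype. Each array held RNA of tibia and femur, in which 2 bone samples of 1 genotype had been combined. The labels do not give the number of animals behind each RNA, so p-values refer to the variation among these RNA samples, part of which may be technical. Long bone is a mixed tissue that also holds marrow, cartilage and vessels, and in such bulk samples fewer cells of a type cannot be told apart from less RNA per cell.

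Osteoblasts secrete large amounts of collagen, and this load passes through the ER and Golgi. Nascent chains enter the ER through the translocon, leave it in COPII carriers built at ER exit sites, and reach the Golgi, from which COPI vesicles return escaped ER proteins and cargo receptors. Inherited defects of several of these components, among them SEC23A, SEC24D and KDELR2, are known to cause skeletal disease in people.

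The deposited values are centred on 0 for each probe set, so they give differences between arrays on the log2 scale and no level of expression. Levels of different genes, detection of a gene and the presence of bone markers can therefore not be read. Where the 4 Hyp and 4 WT values of a probe set do not overlap, centring on the median by itself puts 0 between them. Phex, the deleted gene, lay between -3.65 and -2.99 on the Hyp arrays and between 2.95 and 3.48 on the WT arrays. WT replicate 3 stood apart on the second principal component (22.6% of the variance), at -38.4 against -10.3 to 17.5 for the other arrays, and its skeletal muscle markers were high. Results that depend on this or another array are given with and without it.

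In Hyp bone, 28 of the 43 genes fell and none rose (limma, adjusted p under 0.05 over all genes). The share of all genes that fell was 6.32%, and 6.54% rose. Since the members were chosen with earlier results of these data known, these shares describe the list and are no test of it. Among 97 measured genes of the same route that are not members, 32 fell. No member lay above 0 with an unadjusted p under 0.05, while 32 lay below 0 at that level. The median difference of the members was -0.31 on the log2 scale, against 0.025 for all genes tested. The decreases were moderate: the largest, in Kdelr3, corresponded to a level 44.5% lower, 6 members were more than 1.5-fold lower and none reached 2-fold. In 32 of the 43 genes every Hyp array lay below every WT array, a pattern found in 8.89% of all genes. The reverse pattern, found in 10.3% of all genes, occurred in none of them. The mean over all 43 genes lay between -0.188 and -0.128 on the Hyp arrays and between 0.124 and 0.178 on the WT arrays. Of the member probe sets 47 of 87 fell and none rose, where 3.91% of all probe sets fell and 3.22% rose.

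**Figure D1:**
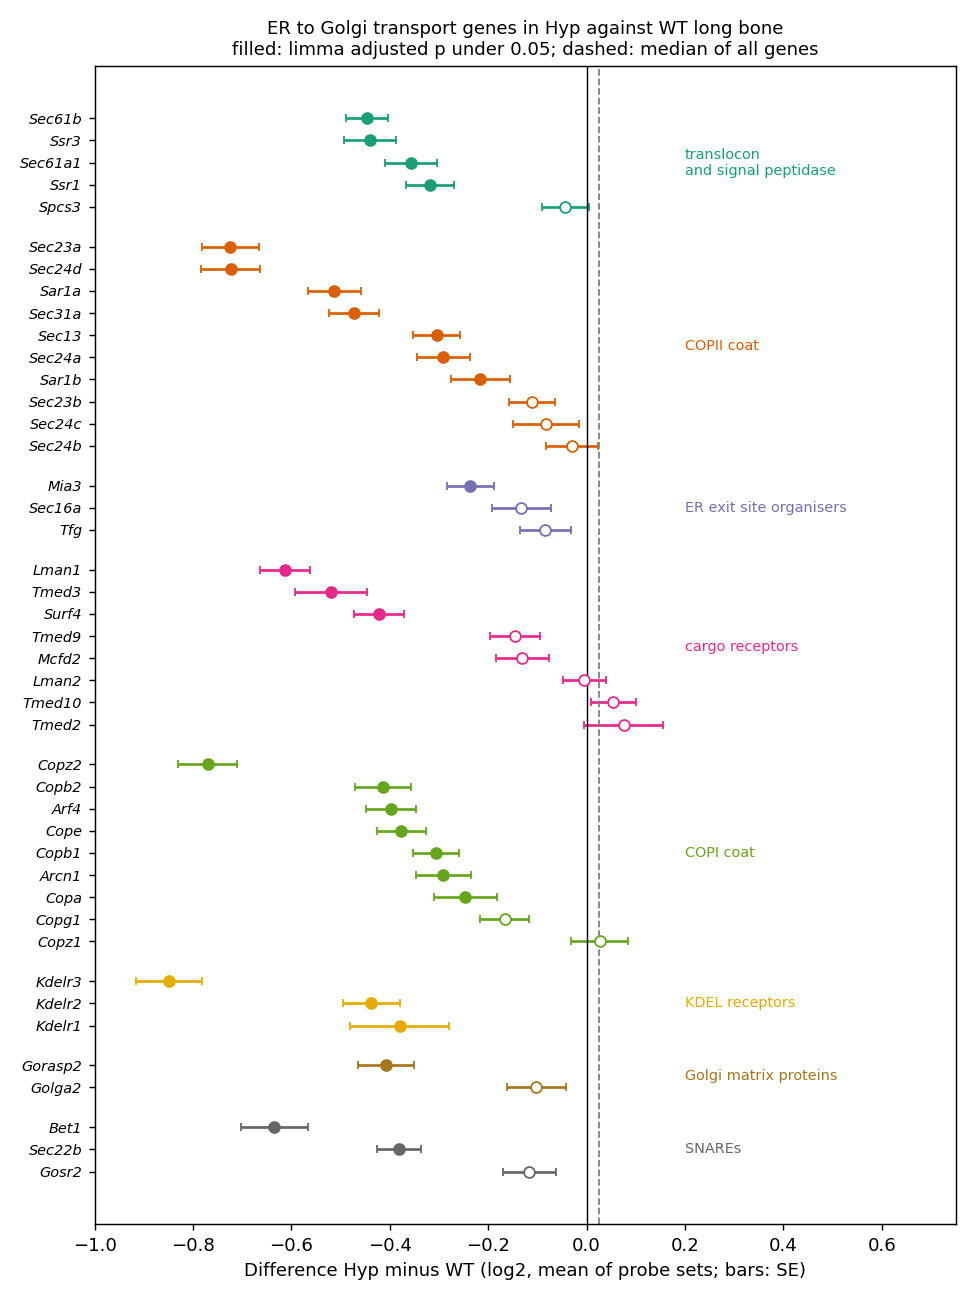
Difference between Hyp and WT long bone for each of the 43 genes, grouped by role. The x axis is the log2 difference of the means of 4 arrays per genotype, bars are SE from the limma fit, filled points passed an adjusted p of 0.05, and the dashed line is the median of all 18193 genes. The 28 filled points all lie left of 0, and 3 open points (Tmed2, Tmed10 and Copz1) lie right of it.

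Nascent secretory proteins enter the ER through the translocon and are trimmed there by the signal peptidase, and of the 5 genes of these complexes 4 fell (median -0.36). Sec61b, a small subunit of the channel, lay at -0.26, -0.20, -0.23 and -0.21 on the Hyp arrays and 0.20, 0.22, 0.23 and 0.24 on the WT arrays, listed here and below in the order of replicates 1 to 4. It fell by 0.45 ± 0.043 (SE; limma adjusted p = 0.000123), and both groups were tight (SD 0.029 in Hyp and 0.017 in WT, n = 4). Ssr3, a subunit of the translocon-associated protein complex, lay at -0.27, -0.28, -0.14 and -0.17 on the Hyp arrays and 0.25, 0.15, 0.21 and 0.28 on the WT arrays and fell by 0.44 ± 0.053 (SE; limma adjusted p = 0.000456). The groups of both genes were well apart, with the lowest WT value of Ssr3 at 0.15 and its highest Hyp value at -0.14. Sec61a1, which forms the pore, fell by 0.36 ± 0.053 (SE; limma adjusted p = 0.00152), and 3 of its 6 probe sets fell. Ssr1, another subunit of the associated complex, fell by 0.32 ± 0.049 (SE; limma adjusted p = 0.00182), with 2 of its 4 probe sets called. Spcs3, a subunit of the signal peptidase that removes signal sequences, lay at -0.043 ± 0.048 (SE; limma adjusted p = 0.609) and its groups overlapped.

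COPII coats form when the GTPase Sar1 recruits the inner layer of Sec23 and Sec24, on which Sec13 and Sec31 build the outer cage. Of the 10 COPII genes 7 fell, with a median of -0.30. Sec23a lay at -0.40, -0.40, -0.35 and -0.26 on the Hyp arrays and 0.39, 0.26, 0.36 and 0.47 on the WT arrays. Sec24d, one of the 4 Sec24 proteins that select cargo, lay at -0.43, -0.52, -0.27 and -0.36 on the Hyp arrays and 0.32, 0.27, 0.34 and 0.37 on the WT arrays. Both genes separated the genotypes by a wide gap: Sec23a fell by 0.72 ± 0.058 (SE; limma adjusted p = 5.25e-05) and Sec24d fell by 0.72 ± 0.060 (SE; limma adjusted p = 5.74e-05), which is 39.5% and 39.4% lower in Hyp bone. Sar1a lay at -0.20, -0.35, -0.22 and -0.20 on the Hyp arrays and 0.28, 0.32, 0.19 and 0.29 on the WT arrays and fell by 0.51 ± 0.054 (SE; limma adjusted p = 0.000201). Sec31a, of the outer cage, lay at -0.18, -0.28, -0.21 and -0.21 on the Hyp arrays and 0.30, 0.18, 0.31 and 0.23 on the WT arrays and fell by 0.47 ± 0.051 (SE; limma adjusted p = 0.000217). The Hyp and WT arrays of Sar1a and Sec31a did not overlap. Sec13, the partner of Sec31, fell by 0.30 ± 0.047 (SE; limma adjusted p = 0.00205).

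The other COPII genes differed less. Sec24a lay at -0.22, -0.098, -0.070 and -0.14 on the Hyp arrays and 0.12, 0.14, 0.25 and 0.12 on the WT arrays and fell by 0.29 ± 0.054 (SE; limma adjusted p = 0.00571), with -0.49 at 1 of its probe sets and -0.091 at the other (limma adjusted p = 0.00145 and 0.532). Sar1b lay at -0.083, -0.13, -0.13 and -0.028 on the Hyp arrays and 0.23, 0.041, 0.19 and 0.028 on the WT arrays, and 2 of its WT values, 0.041 and 0.028, were close to the highest Hyp value of -0.028. It fell by 0.22 ± 0.060 (SE; limma adjusted p = 0.0398). This call was lost without any single array other than WT replicate 2 or WT replicate 4 (limma adjusted p from 0.0513 without Hyp replicate 4 to 0.118 without WT replicate 1), and its 1 probe set did not pass in the fit over all probe sets (limma adjusted p = 0.0849). The call was also lost with the SD filter and when each gene was read from its most variable probe set (limma adjusted p = 0.0653 and 0.0817).

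Sec23b lay at -0.016, -0.048, -0.066 and -0.022 on the Hyp arrays and 0.13, 0.10, 0.016 and 0.049 on the WT arrays, a difference of -0.11 ± 0.047 (SE; limma adjusted p = 0.151). Sec24b lay at -0.0097, -0.083, -0.12 and 0.066 on the Hyp arrays and 0.0097, 0.011, -0.025 and -0.025 on the WT arrays, a difference of -0.031 ± 0.053 (SE; limma adjusted p = 0.76). Sec24c lay at 0.023, -0.081, -0.12 and -0.015 on the Hyp arrays and 0.17, 0.10, -0.065 and -0.076 on the WT arrays, a difference of -0.082 ± 0.067 (SE; limma adjusted p = 0.473). The groups of Sec24b and Sec24c overlapped, and those of Sec23b did not but lay only 0.032 apart. The probe sets of Sec24b (0.029 and -0.090) and of Sec24c (-0.26 and 0.097) had opposite signs, and none was called.

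At ER exit sites, where COPII carriers form, 1 of 3 organisers fell. Mia3 (also called TANGO1), which loads bulky cargo such as collagen into carriers, fell by 0.24 ± 0.048 (SE; limma adjusted p = 0.00905). Its 4 probe sets disagreed: 1 fell by 0.75 ± 0.145 (SE; limma adjusted p = 0.012) and the other 3 lay between -0.16 and -0.0053 (limma adjusted p from 0.52 to 0.983), so the decrease of the gene mean rests on a single probe set. Sec16a, the scaffold of exit sites, lay at -0.13 ± 0.060 (SE; limma adjusted p = 0.183) and Tfg, which clusters carriers near the exit site, at -0.084 ± 0.052 (SE; limma adjusted p = 0.331).

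Cargo receptors split into 3 that fell and 5 that did not pass. Lman1, a lectin that carries glycoproteins out of the ER, lay at -0.29, -0.39, -0.25 and -0.24 on the Hyp arrays and 0.38, 0.30, 0.28 and 0.32 on the WT arrays. It fell by 0.61 ± 0.051 (SE; limma adjusted p = 5.74e-05), and all 5 of its probe sets fell. Surf4, a receptor for soluble cargo, lay at -0.20, -0.21, -0.16 and -0.16 on the Hyp arrays and 0.25, 0.15, 0.33 and 0.21 on the WT arrays and fell by 0.42 ± 0.052 (SE; limma adjusted p = 0.000485), again with 5 of 5 probe sets called. Hyp and WT arrays did not overlap for Lman1 and Surf4. Tmed3, of the p24 family of cargo adaptors, fell by 0.52 ± 0.074 (SE; limma adjusted p = 0.00116), with 1 of 2 probe sets called. It ranged from -0.26 to -0.052 in Hyp and from 0.18 to 0.50 in WT.

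The other receptors did not pass the threshold. Mcfd2, the partner of Lman1 in carrying coagulation factors, lay at -0.13 ± 0.054 (SE; limma adjusted p = 0.151). Lman2, another ER to Golgi lectin, lay at -0.0048 ± 0.044 (SE; limma adjusted p = 0.959). Tmed9 lay at -0.15 ± 0.051 (SE; limma adjusted p = 0.0929), with Hyp values from -0.076 to -0.0035 and WT values from 0.034 to 0.20. Tmed10 and Tmed2, also of the p24 family, lay at 0.055 ± 0.046 (SE; limma adjusted p = 0.482) and 0.075 ± 0.080 (SE; limma adjusted p = 0.589). These were read from 1 probe set each, since 4 other probe sets of Tmed10 and 6 of Tmed2 are annotated to a second gene as well and were left out. WT replicate 2 of Tmed2 lay at -0.32 and the other 7 arrays between -0.036 and 0.082.

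**Figure D2:**
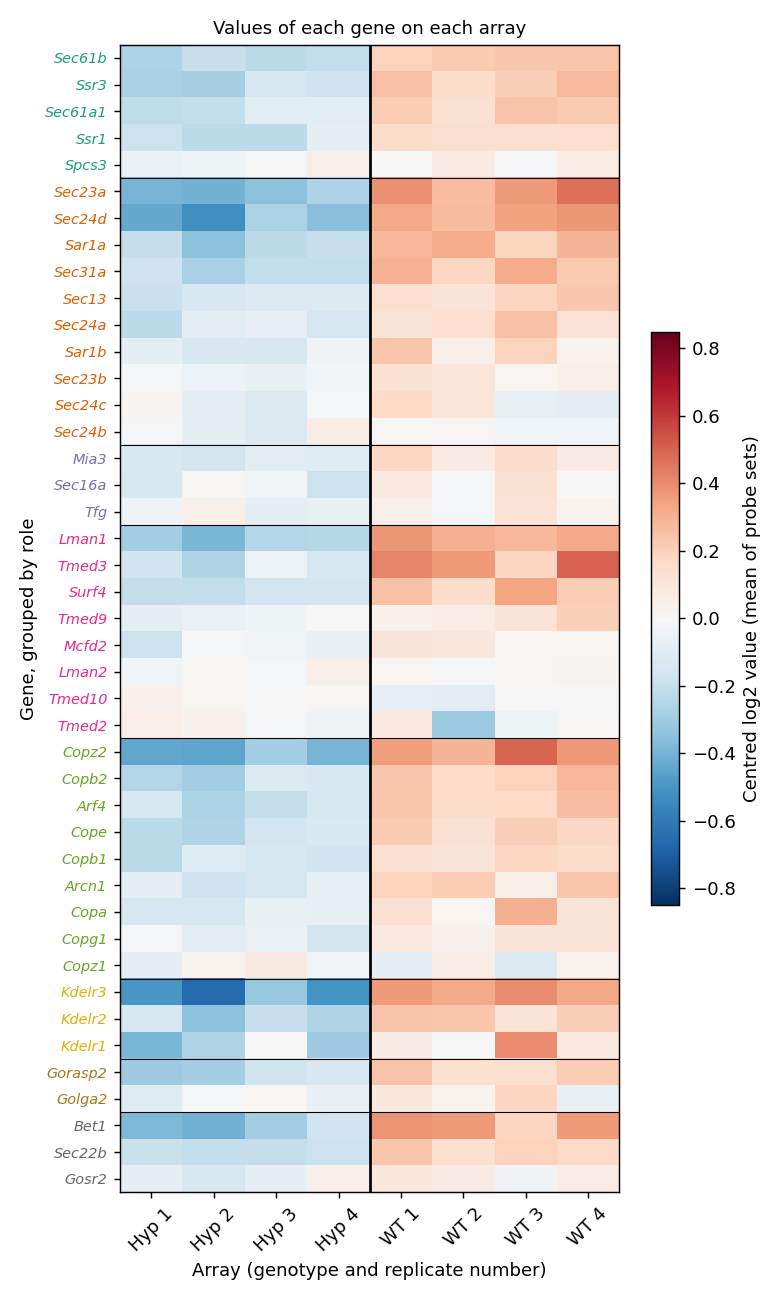
Centred log2 value of each of the 43 genes on each of the 8 arrays, with genes in rows grouped by role and coloured by it, and arrays in columns (Hyp left of the vertical line, WT right). Blue is below and red above 0, on which each probe set was centred before the mean per gene was taken. Most rows turn from blue to red at the line. The rows of Spcs3, Sec24b, Sec24c, Sec16a, Tfg, Lman2, Tmed10, Tmed2, Copz1, Golga2 and Gosr2 stay pale or mixed.

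COPI vesicles return proteins from the Golgi to the ER, and their coat is a complex of several subunits recruited by Arf GTPases. Of the 9 genes measured 7 fell, with a median of -0.31. Copz2, one of 2 forms of the zeta subunit, lay at -0.44, -0.45, -0.29 and -0.40 on the Hyp arrays and 0.36, 0.29, 0.49 and 0.37 on the WT arrays. It fell by 0.77 ± 0.060 (SE; limma adjusted p = 4.89e-05), or 41.4% lower, and had the smallest p of all members. Copb2, the beta-prime subunit, lay at -0.25, -0.29, -0.12 and -0.13 on the Hyp arrays and 0.23, 0.16, 0.20 and 0.28 on the WT arrays and fell by 0.41 ± 0.057 (SE; limma adjusted p = 0.000937), at both of its probe sets. Cope, the epsilon subunit, lay at -0.23, -0.26, -0.16 and -0.13 on the Hyp arrays and 0.22, 0.13, 0.21 and 0.17 on the WT arrays and fell by 0.38 ± 0.050 (SE; limma adjusted p = 0.000837). Arf4, a GTPase of the early Golgi, lay at -0.15, -0.27, -0.20 and -0.15 on the Hyp arrays and 0.24, 0.16, 0.17 and 0.26 on the WT arrays and fell by 0.40 ± 0.051 (SE; limma adjusted p = 0.000615), with 3 of 4 probe sets called. In each of these 4 genes the lowest WT array exceeded 0.12 and the highest Hyp array lay below -0.11.

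The remaining coat subunits differed less. Copb1 (beta) fell by 0.31 ± 0.047 (SE; limma adjusted p = 0.00191) and Arcn1 (delta) fell by 0.29 ± 0.056 (SE; limma adjusted p = 0.00696). Copa, the alpha subunit, fell by 0.25 ± 0.065 (SE; limma adjusted p = 0.0308) on the gene mean, with probe sets at -0.098 and -0.39 (limma adjusted p = 0.522 and 0.0177). Copa no longer passed without any single Hyp array, WT replicate 1 or WT replicate 4 (limma adjusted p from 0.0523 to 0.0804). Copg1, the gamma subunit, lay just outside the threshold at -0.17 ± 0.050 (SE; limma adjusted p = 0.0524). One of its 3 probe sets fell by 0.40, and the gene mean passed with median centring and with quantile normalization (limma adjusted p = 0.0418 and 0.0444). Copz1 lay at -0.073, 0.030, 0.077 and -0.026 on the Hyp arrays and -0.081, 0.066, -0.12 and 0.033 on the WT arrays, and its difference of 0.026 ± 0.059 (SE; limma adjusted p = 0.818) came from probe sets of opposite sign (0.23 and -0.18, neither called).

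KDEL receptors, which capture ER chaperones that have escaped to the Golgi and send them back in COPI vesicles, fell in all 3 members. Kdelr3 lay at -0.50, -0.65, -0.32 and -0.51 on the Hyp arrays and 0.36, 0.32, 0.40 and 0.33 on the WT arrays. It fell by 0.85 ± 0.067 (SE; limma adjusted p = 5.25e-05), the largest decrease among the members. Kdelr2 lay at -0.15, -0.35, -0.19 and -0.26 on the Hyp arrays and 0.24, 0.24, 0.12 and 0.21 on the WT arrays and fell by 0.44 ± 0.058 (SE; limma adjusted p = 0.000754). All arrays of both genes were separated by genotype, though the probe sets of Kdelr2 disagreed in size, at -0.76 and -0.12 (limma adjusted p = 0.000152 and 0.398). Kdelr1 varied most: it lay at -0.39, -0.26, -0.0045 and -0.31 on the Hyp arrays and 0.073, 0.0045, 0.40 and 0.083 on the WT arrays, so that Hyp replicate 3 and WT replicate 2 nearly met at 0. It fell by 0.38 ± 0.101 (SE; limma adjusted p = 0.033). This call was lost without Hyp replicate 1, 2 or 4 or without WT replicate 1 or 4 (limma adjusted p from 0.059 to 0.0885), and its 1 probe set did not pass in the fit over all probe sets (limma adjusted p = 0.0586).

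Of the Golgi matrix proteins, Gorasp2, which helps to stack the cisternae, fell by 0.41 ± 0.057 (SE; limma adjusted p = 0.00106), at both of its probe sets, and Golga2, a tether at the entry face, lay at -0.10 ± 0.060 (SE; limma adjusted p = 0.311). SNAREs fuse the arriving vesicles with their target, and 2 of the 3 measured fell. Bet1 lay at -0.38, -0.41, -0.30 and -0.17 on the Hyp arrays and 0.38, 0.36, 0.18 and 0.36 on the WT arrays and fell by 0.64 ± 0.068 (SE; limma adjusted p = 0.00021). Sec22b lay at -0.19, -0.21, -0.21 and -0.19 on the Hyp arrays and 0.24, 0.14, 0.19 and 0.17 on the WT arrays and fell by 0.38 ± 0.045 (SE; limma adjusted p = 0.000366). Both probe sets of each gene fell, and in Sec22b the Hyp arrays differed by no more than 0.026 from each other. Gosr2, the third SNARE, lay at -0.12 ± 0.054 (SE; limma adjusted p = 0.195) with overlapping groups.

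Several steps are served by paralogs, and the difference between the changes of 2 paralogs was tested directly in 7 pairs by a two-sided exact permutation test over the arrays, whose smallest p for 4 against 4 is 0.029. In 6 pairs it reached that p (adjusted p = 0.0333 over the pairs). Sec23a fell further than Sec23b, by 0.61 ± 0.064 (SE, n = 4 per group), and Sec24d fell further than Sec24c, by 0.64 ± 0.105. Copz2 fell further than Copz1, by 0.80 ± 0.087, and Sec24a further than Sec24b, by 0.26 ± 0.077. Sar1a fell further than Sar1b, by 0.30 ± 0.078. Kdelr3 fell further than Kdelr2, by 0.41 ± 0.064, while Kdelr2 and Kdelr1 differed by -0.058 ± 0.150 (exact permutation p = 0.743, adjusted p = 0.743). Paralogs were read from different probe sets, and which of these lie near background cannot be read from centred values.

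With only the most variable probe set of each gene no pair passed (exact permutation test, adjusted p from 0.0667 to 0.114), although the direction stayed in all 7. Sec23a and Sec23b have 1 probe set each, so their difference stayed at -0.61 and only its adjusted p moved, to 0.0667, because fewer of the other pairs reached the smallest p. The difference was larger than with the gene means for Sar1b against Sar1a (0.41), Copz2 against Copz1 (-1.0), Sec24a against Sec24b (-0.40) and Kdelr2 against Kdelr1 (-0.38). It was smaller for Sec24d against Sec24c (-0.46) and for Kdelr3 against Kdelr2 (-0.092), since the probe set of Kdelr2 used there is the one that fell by 0.76.

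**Figure D3:**
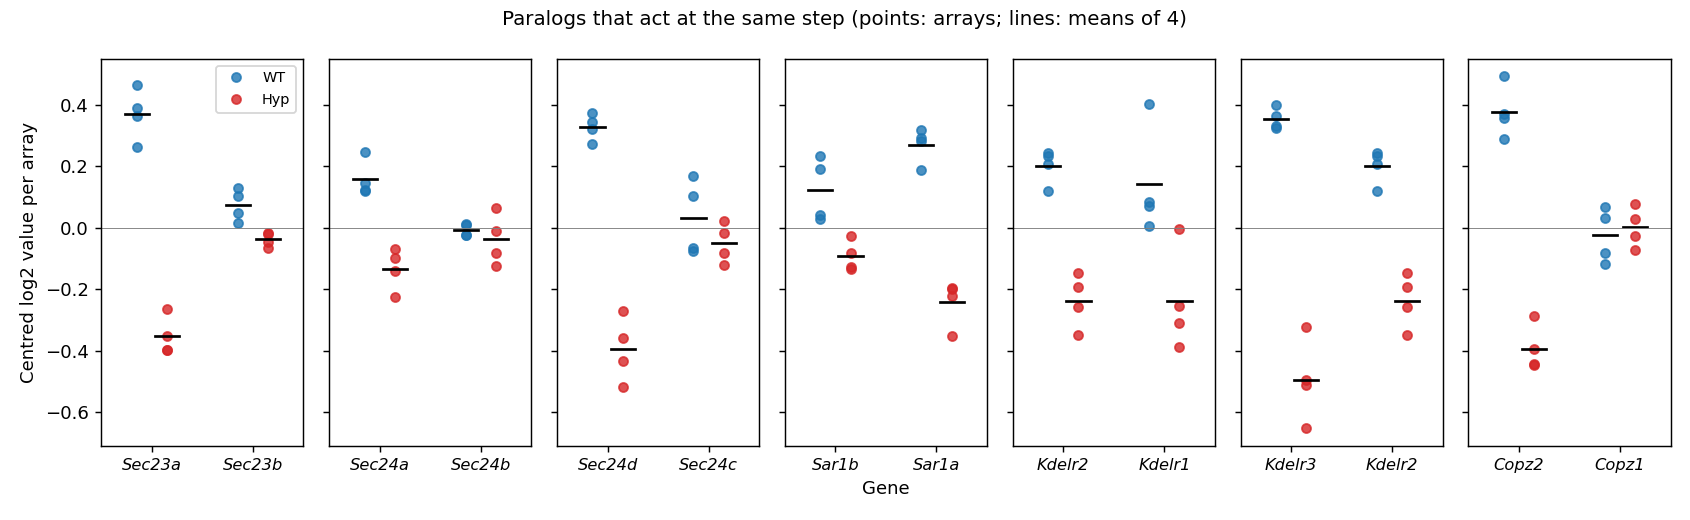
Centred log2 values of the 7 pairs of paralogs, with 1 point per array (WT blue, Hyp red) and a line at the mean of the 4 arrays of a genotype. The genotypes are far apart for Sec23a, Sec24d, Copz2 and Kdelr3 and overlap for Sec24b, Sec24c and Copz1.

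The wider pathway was followed in a list of 97 measured genes of the same route that are not members. Of these 32 fell and none rose (limma, where 6.32% and 6.54% of all genes did), with a median of -0.13. Without adjustment 5 lay above 0 with p under 0.05. In the part that serves entry into the ER, made up of the signal recognition particle and its receptor, other translocon and signal peptidase subunits and the oligosaccharyltransferase, 16 of 24 fell. Ssr2 fell by 0.39 ± 0.046 (SE; limma adjusted p = 0.000394) and Srprb, a subunit of the receptor for the signal recognition particle, fell by 0.46 ± 0.057 (SE; limma adjusted p = 0.000522). Among other COPII and exit site genes 6 of 19 fell, including Yif1b by 0.46 ± 0.050 and Yif1a by 0.36 ± 0.043, membrane proteins of the early secretory route. Of the tethers and SNAREs 8 of 27 fell. Cog6, a subunit of the conserved oligomeric Golgi tethering complex, fell by 0.64 ± 0.068 (SE; limma adjusted p = 0.000207) and Uso1, the tether that captures COPII vesicles, fell by 0.45 ± 0.049 (SE; limma adjusted p = 0.00024). Of other COPI and Arf genes 2 of 12 fell. None of 15 other cargo receptors fell or rose (limma), although 5 lay below and 2 above 0 with an unadjusted p under 0.05. The highest value of the wider list belonged to one of these, Lman1l, chosen after its values were seen, at 0.41 ± 0.122 (SE; limma adjusted p = 0.0512). Lman1l passed as higher without Hyp replicate 2 (0.51, limma adjusted p = 0.0199), without WT replicate 3 (0.47, limma adjusted p = 0.035) and without both (0.57, limma adjusted p = 0.012). It also passed with the muscle covariate (0.52, limma adjusted p = 0.00696), with array weights (limma adjusted p = 0.0254) and with the SD filter (limma adjusted p = 0.0263). Without any other single array Lman1l did not pass (limma adjusted p from 0.0548 without Hyp replicate 4 to 0.141 without WT replicate 1). Its groups overlapped, with Hyp replicate 2 at -0.031 and WT replicate 3 at 0.031.

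Transcription factors known to drive secretory genes were partly lower. Creb3l1, an ER-bound factor of osteoblasts also called OASIS, lay at -0.46, -0.78, -0.32 and -0.39 on the Hyp arrays and 0.49, 0.32, 0.42 and 0.43 on the WT arrays and fell by 0.91 ± 0.092 (SE; limma adjusted p = 0.000162). Xbp1, a factor of the unfolded protein response, fell by 0.34 ± 0.058 (SE; limma adjusted p = 0.00391) and Creb3 fell by 0.31 ± 0.046 (SE; limma adjusted p = 0.00181). Creb3l2, Atf4 and Atf6, which act in the same programme, lay at -0.054 ± 0.059, -0.15 ± 0.048 and 0.027 ± 0.057 (limma adjusted p = 0.6, 0.0679 and 0.807). The probe sets of Creb3l2 had opposite signs, at -0.22 and 0.11 (limma adjusted p = 0.0487 and 0.53). A probe set of Creb3 lay at -0.0096 (limma adjusted p = 0.96), while its others fell. The 3 probe sets of Atf4 disagreed: 1 fell by 0.48 (limma adjusted p = 0.0084) and the others lay at -0.19 and 0.21. Atf4 therefore passed when read from its most variable probe set (limma adjusted p = 0.00699) and lay at 0.013 without shared-probe suffixes. Its gene mean passed without WT replicate 2 (-0.18, limma adjusted p = 0.0485).

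The secreted matrix proteins that use this route did not move as one. Of 11 measured cargo genes 6 fell and 2 rose. Col5a1 and Col5a2, chains of a minor fibrillar collagen, fell by 0.67 ± 0.076 and 0.65 ± 0.064. Col1a2, Bgn (biglycan), Dcn (decorin) and Sparc (osteonectin) fell by 0.47 ± 0.080, 0.33 ± 0.057, 0.29 ± 0.081 and 0.22 ± 0.050. The decrease of Dcn rests on 1 of its 2 probe sets (-0.64, limma adjusted p = 0.00817), the other lying at 0.055. The probe sets of Col1a2 lay at -1.06, -0.24 and -0.11, so the size of its decrease rests mainly on 1 of them. Mepe, a phosphoprotein of osteocytes, rose by 0.87 ± 0.156 and Col1a1 by 0.47 ± 0.119. The increase of Col1a1 rests on 1 of its 2 probe sets (1.08, limma adjusted p = 0.0214), the other lying at -0.14 (limma adjusted p = 0.174). Limma adjusted p for the 8 cargo genes called ranged from 0.000134 to 0.0384. Ibsp, Dmp1 and Fn1 lay at -0.17 ± 0.064, 0.14 ± 0.066 and 0.034 ± 0.095 (limma adjusted p = 0.117, 0.201 and 0.855). The calls of Dcn and Col1a1 were lost without any of several single arrays: for Dcn all but Hyp replicate 3 and Hyp replicate 4 (limma adjusted p from 0.0585 to 0.0988), for Col1a1 all but Hyp replicate 1, Hyp replicate 4 and WT replicate 3 (from 0.0509 to 0.0791). That of Sparc was lost without WT replicate 1 (0.0565) and with the SD filter (limma adjusted p = 0.0512). Without both WT replicate 3 and Hyp replicate 2 the calls of Sparc and Dcn were lost (limma adjusted p = 0.0661 and 0.15). With the muscle covariate that of Dcn was lost (limma adjusted p = 0.0798).

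Markers of cell types moved with genotype on the same arrays. Of 8 measured osteoblast markers, among which Ibsp is also in the cargo list, 7 fell (median -0.73), and their mean lay between -0.508 and -0.253 on the Hyp arrays and between 0.285 and 0.407 on the WT arrays. Macrophage, endothelial and erythroid markers were higher in Hyp bone: 9 of 10, 9 of 9 and 7 of 7 rose, with medians of 0.83, 0.41 and 0.37. Of 10 chondrocyte markers 5 rose and 1 fell, with means from -0.042 to 0.368 in Hyp and from -0.327 to -0.006 in WT. The part of these cell types in the decrease of the transport genes was not tested, and which markers are near background cannot be read from centred values.

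Plasma cells, a marrow cell type with a large secretory apparatus, had none of 7 markers called (limma, none with an unadjusted p under 0.05), and their mean lay between -0.126 and 0.195 in Hyp and between -0.130 and 0.095 in WT. None of 8 B lineage markers rose and 2 fell. Neutrophil markers showed no call among 9 (limma, 1 above 0 with an unadjusted p under 0.05), osteoclast markers 1 decrease among 8, and adipocyte markers 1 increase and 1 decrease among 4. Skeletal muscle markers varied most between arrays, with list means of 2.20 in WT replicate 3 and -1.38 in Hyp replicate 2. Their median difference was -0.74, and none of 12 was called (limma, none with an unadjusted p under 0.05). Without these 2 arrays, and likewise with the muscle mean as a covariate, 25 members fell and none rose, the 3 lost being Sar1b, Copa and Kdelr1.

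**Figure D4:**
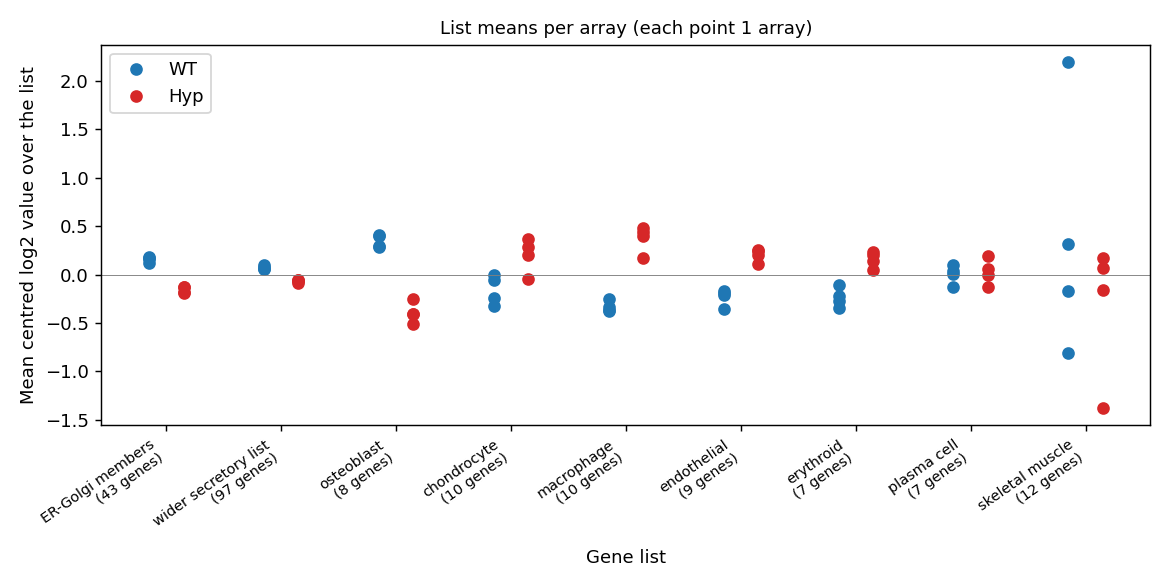
Mean centred log2 value of gene lists on each array, with 1 point per array (WT blue, Hyp red) and the number of genes of each list under its name. The transport members, the wider secretory list and the osteoblast markers are lower on every Hyp array than on any WT array, macrophage, endothelial and erythroid markers are higher, and plasma cell and skeletal muscle markers overlap.

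The promoters in the RefSeq table (GRCm38.p6) were searched for 4 motifs linked to ER or Golgi stress, on both strands, in windows from 250 bases before to 50 after a transcription start. Windows were held for 37 of the 43 members (40 windows). The unfolded protein response element TGACGTGG occurred in 5 members, Copb1, Copb2, Kdelr3, Sec23a and Sec24d. All 5 fell, as did 24 of the 37 members with a window, and whether the element goes with a decrease was not tested. The element was in 12.5% of the member windows, against 0.676% of all 32851 windows and 0.933% of the windows of genes tested on the arrays. The Golgi stress element ACGTGGC occurred in 14 members, or 35% of their windows against 2.58% and 3.36%. Of the 24 members that fell and had a window 10 held it, and of the 13 others 4. Both motifs share the letters ACGTGG, and in Kdelr3, Sec23a and Sec24d the matches overlap. The ER stress element (CCAAT, any 9 bases, CCACG) and its second form (ATTGG, any 1 base, CCACG), which end in the same letters, had no match in a member window, where 0.119% and 0.0365% of all windows had one. Member windows had a median GC content of 59.7%, against 58.3% for the windows of tested genes and 52.7% for all windows. The members were chosen by name for this route, and the genes of the wider list were not counted on their own. These shares therefore describe the list and are no test of its decrease. A match describes the letters of a window and does not show that a factor binds there.

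The 100 bases before the start are printed for the members that fell and held a match wholly within them, 5′ to 3′ on the strand of the gene, with the matches in capitals. In Copb1 the capitals are the unfolded protein response element read on the opposite strand, in Kdelr3 and Sec24d that element overlapping the Golgi stress element, and in Ssr1 the Golgi stress element at 2 places. The Copb1 stretch lies at chr7:114254681-114254780 (minus strand), that of Kdelr3 at chr15:79516308-79516407 (plus), that of Sec24d at chr3:123267396-123267495 (plus) and that of Ssr1 at chr13:37994209-37994308 (minus). The Sec24d stretch lies inside the annotated span of the gene, which has an earlier start, and the other 3 lie just outside theirs.
Copb1: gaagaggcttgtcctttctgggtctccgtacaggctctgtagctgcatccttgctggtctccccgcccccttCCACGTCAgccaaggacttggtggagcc
Kdelr3: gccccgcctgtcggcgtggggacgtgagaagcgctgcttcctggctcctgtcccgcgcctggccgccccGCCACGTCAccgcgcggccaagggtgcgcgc
Sec24d: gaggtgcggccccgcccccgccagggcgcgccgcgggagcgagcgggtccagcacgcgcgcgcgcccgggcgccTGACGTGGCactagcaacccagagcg
Ssr1: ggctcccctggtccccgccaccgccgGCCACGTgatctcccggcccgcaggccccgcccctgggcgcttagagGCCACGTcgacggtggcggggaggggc
The decreases of these 4 genes differed in size: Kdelr3 lay at -0.85, Sec24d at -0.72, Copb1 at -0.31 and Ssr1 at -0.32. They were printed because they fell and held a match there. Copg1, Mcfd2, Sec24c and Tmed9 also held the Golgi stress element and were not called. Whether a motif goes with the size of a decrease was not tested. Copz2, which fell by 0.77, held the Golgi stress element only after its start, and neither motif was found in the window of Bet1, which fell by 0.64.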

How the data were processed

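RNA of 4 Hyp and 4 WT samples was labelled with biotin and hybridised to 1 array each. The deposited table gives each probe set 1 log2 value on each array, made with RMA per the submitters' processing notes, which give no version. The median of each probe set over the 8 arrays was 0 within 5.0e-07, which means that the authors' log2 values reached the table after centring, a step the labels do not record. Base 2 is inferred: the widest probe set covered 8.92 units, and a 16-bit scanner covers 4.8 in log10 units. No 2 arrays held the same values. The number of arrays limits the precision.

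After leaving out 64 control probe sets, 45037 were tested. Of these 34945 had 1 gene symbol in the platform annotation, 932 several and 9160 none, and symbols were updated by gene ID through a RefSeq table (GRCm38.p6, which held 34741). Probe sets were averaged per gene and array, giving 18193 genes. The genotypes were compared with limma 3.58.1 in R 4.3.3 (lmFit, eBayes). The test was two-sided and had no covariate. Adjusted p-values (Benjamini-Hochberg) cover all genes, at a threshold of 0.05, and in a second fit all probe sets. Differences are Hyp minus WT. The fit was tested on simulated data with known shifts. For genes it recovered 22 of 50 at a shift of 0.3, 42 at 0.5, 49 at 1 and 50 at 2, with 10 false calls. For probe sets it recovered 6 of 50 at a shift of 0.3 and 25 at 0.5, with 7 false calls.

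The members, gene lists and motifs were chosen with earlier results of these data known. Of 103 genes in the wider list 97 were matched to a tested gene. Values per array are given for the 16 members with the smallest p and for both genes of a paralog pair at the smallest permutation p. Members with adjusted p from 0.05 to 0.1, the 6 genes of the wider list with the smallest p, and all regulators and cargo genes are named. The alternatives tried were a replicate block, other probe set summaries and normalizations, array weights, a robust prior, an SD filter, other thresholds, left-out arrays and a muscle covariate. A filter on level was not possible with centred values.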

Additional observations from a re-analysis of the deposited data

Results flagged for a closer look

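In 132 groups of 4 arrays (in each genotype, all members, regulators and cargo genes and the 6 genes of the wider list with the smallest p) a single array was set against the other 3. In 4 groups the gap between 1 array and the rest, as a share of the range, exceeded Dixon's critical value, where chance flags about 1 in 20 groups. Sar1a lay at -0.35 in Hyp replicate 2 and between -0.22 and -0.20 in the other Hyp arrays. Bet1 lay at 0.18 in WT replicate 3 and between 0.36 and 0.38 in the other WT arrays. Col1a1 lay at -0.01 in WT replicate 3 and at -0.31 in the other 3. Bgn lay at -0.07 in Hyp replicate 3 and between -0.28 and -0.26 in the others. Sar1a and Bet1 fell under all alternatives run at a threshold of 0.05, those without these arrays included, with differences from -0.63 to -0.48 and from -0.74 to -0.60.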

How the results depend on the processing

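The number of members that fell was 28, and between 25 and 30 under all alternatives, with none that rose in any. All 28 kept their direction in each alternative, and 25 passed in every alternative at a threshold of 0.05, Sar1b, Copa and Kdelr1 being the exceptions. The most variable probe set was picked over Hyp and WT arrays together, so a genotype difference favours its choice. That alternative is therefore no independent check of a decrease. Among the 25, Mia3, Sec24a and Kdelr2 each had 1 called probe set (-0.75, -0.49 and -0.76). No alternative left these probe sets out, so whether the calls hold without them was not tested. The replicate numbers were not taken as pairs. The deviations of same-numbered arrays correlated by 0.145, -0.044, 0.262 and 0.179, and those of other combinations by -0.274 to 0.199. Hyp replicate 1 correlated best with WT replicate 2 (0.199) and Hyp replicate 2 with WT replicate 1 (0.132). Hyp replicate 3 and Hyp replicate 4 correlated best with the WT array of their own number. With the replicate block 27 members fell, the one lost being Sar1b (limma adjusted p = 0.0688), 30 genes of the wider list fell, and 1 gene of that list, Lman1l, rose (limma adjusted p = 0.0342). In the wider list 32 genes fell in the main comparison, 20 at a threshold of 0.01 and between 26 and 33 with 1 array left out. Genes of that list that rose numbered 0 in the main comparison, 1 with array weights, with the SD filter, without both WT replicate 3 and Hyp replicate 2 and with the muscle covariate, 3 at a threshold of 0.1, and from 0 to 2 with 1 array left out (1 without Hyp replicate 2 and 2 without WT replicate 3). Of the paralog pairs 6 passed, 6 without shared-probe suffixes and 0 with the most variable probe set per gene. With 1 array left out the pairs were not tested and only their values were recomputed. The cause of these changes was not tested.

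Signs reversed only for values that were not called. With 1 array left out, Lman2 ran from -0.020 to 0.0043 (above 0 also without Hyp replicate 3, 0.0018), Tmed2 from -0.0089 to 0.124, Copz1 from -0.0043 to 0.057, Atf6 from -0.010 to 0.071, Fn1 from -0.025 to 0.104 (below 0 also without WT replicate 4, -0.017) and Kdelr2 against Kdelr1 from -0.173 to 0.0055. Copz1 lay at -0.014 without both WT replicate 3 and Hyp replicate 2. With the most variable probe set Lman2 lay at 0.034, Creb3l2 at 0.11 and Fn1 at -0.065, and without shared-probe suffixes Atf4 lay at 0.013. Signal over background cannot be read from centred values, so which genes lie near it is unknown.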
